A study of Mus musculus with 2 samples.

Results

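The cells described here are CD8 T cells of a mouse tumour whose RNA held transcripts of effector genes at the moment of capture. The 3 genes were Ifng, which encodes interferon-γ, and Ccl3 and Ccl4, which encode chemokines that attract other immune cells. Ifng was required in every cell, while Ccl3 and Ccl4 were counted together, so a cell could lack either. The cells were chosen by their own transcripts, counted as unique molecular identifiers (UMIs) per droplet barcode. A barcode that passed the quality limits (500 genes or more, mitochondrial UMIs not above 10%) entered the CD8 base if it held at least 2 Cd8a plus Cd8b1 UMIs, no Foxp3, Cd4, Lyz2 or Mki67 UMI and at most 25000 UMIs. A base barcode was a member if it held at least 2 Ifng UMIs, at least 5 Ccl3 plus Ccl4 UMIs and fewer than 10 UMIs of Gzmd, Gzme, Gzmf and Gzmg together. There were 307 members, 142 from the female and 165 from the male library, among 3023 base barcodes, 6987 barcodes kept and 7366 barcodes in all. The comparison was the 1871 base barcodes with no Ifng UMI (990 female and 881 male), weighted within each library to the members' share of UMIs from barcodes with and without a Havcr2 UMI. Havcr2 encodes the inhibitory receptor TIM-3, which is found on chronically stimulated CD8 T cells.

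The cells came from MB49 tumours, a mouse bladder tumour line grown as a transplant, on day 14 in C57BL/6J females and males aged 12 to 14 weeks. Each sex gave 1 library of 5' droplet counts, with 55880364 UMIs for females and 50946624 UMIs for males, and the number of mice behind a library is not stated. The tumours were digested with collagenase at 37 °C before sorting, and viable CD4+ cells were sorted according to the labels, while every cell described here held Cd8 transcripts and, by the rule, no Cd4 UMI. Because there was 1 library per sex and the members were chosen by what they transcribe, no difference below was tested; intervals are exact 95% intervals and cover counting error only.

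A T cell whose receptor binds its peptide starts calcium, MAP kinase and protein kinase C signals within minutes. NFAT, AP-1 and NF-κB factors then switch on immediate early genes such as Nr4a1, Egr1 and Fos, and soon after them the genes of secreted effectors. Transcripts of Ifng, Ccl3, Ccl4, Tnf and Xcl1 are short-lived, so in CD8 T cells they are known as signs of recent stimulation and not only of a differentiation state. In tumours, cells with TIM-3 and PD-1 have often seen antigen for long, and their ability to make cytokines is usually described as reduced.

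The promoters of 4 genes on which the results turn are shown, from 250 bases before to 50 bases after the RefSeq start, because NFAT and AP-1-like elements of such promoters carry the receptor's signal. They are taken from RefSeq on GRCm38.p6, where the table used holds no entry for Ccl4, Egr3 or Tnfsf9. Ifng spans chr10:118441046-118445892 on the plus strand and its promoter window is chr10:118440796-118441095. Ccl3 spans chr11:83647844-83649355 on the minus strand, with the window chr11:83649329-83649628. Xcl1 spans chr1:164931644-164935527 on the minus strand, with the window chr1:164935473-164935772. Nr4a1 spans chr15:101254269-101274795 on the plus strand, and the window of its RefSeq start is chr15:101266596-101266895. Gene spans are those of GENCODE M21. Sequences read 5' to 3' on the strand of the gene; capitals mark GGAAA, the core of NFAT sites, or its reverse complement TTTCC in the first 3, and TGCGTCA, an AP-1-like element known from the Nr4a1 promoter, in the fourth.
Ifng: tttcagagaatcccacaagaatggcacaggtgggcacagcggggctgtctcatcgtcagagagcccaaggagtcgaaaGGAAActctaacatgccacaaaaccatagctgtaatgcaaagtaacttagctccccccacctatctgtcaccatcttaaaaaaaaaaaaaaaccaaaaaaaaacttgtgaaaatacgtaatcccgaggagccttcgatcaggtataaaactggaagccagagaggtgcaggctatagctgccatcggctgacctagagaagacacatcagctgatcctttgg
Ccl3: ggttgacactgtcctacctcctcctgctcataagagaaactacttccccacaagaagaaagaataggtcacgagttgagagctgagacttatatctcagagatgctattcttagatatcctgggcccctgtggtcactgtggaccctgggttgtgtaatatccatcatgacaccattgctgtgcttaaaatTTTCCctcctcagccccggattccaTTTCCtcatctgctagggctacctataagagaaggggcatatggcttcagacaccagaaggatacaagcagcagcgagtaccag
Xcl1: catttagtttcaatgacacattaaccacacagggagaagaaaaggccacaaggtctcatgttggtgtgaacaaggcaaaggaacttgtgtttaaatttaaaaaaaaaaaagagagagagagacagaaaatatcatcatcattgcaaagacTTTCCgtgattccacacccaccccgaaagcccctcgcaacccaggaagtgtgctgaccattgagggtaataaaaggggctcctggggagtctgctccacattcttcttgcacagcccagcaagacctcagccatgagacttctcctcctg
Nr4a1: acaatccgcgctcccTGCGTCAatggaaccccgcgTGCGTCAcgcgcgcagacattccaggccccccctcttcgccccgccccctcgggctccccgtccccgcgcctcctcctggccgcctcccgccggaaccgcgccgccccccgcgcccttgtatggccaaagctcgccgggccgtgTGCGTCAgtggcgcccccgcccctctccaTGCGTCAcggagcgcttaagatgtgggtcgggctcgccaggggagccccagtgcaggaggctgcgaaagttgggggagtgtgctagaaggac
Ifng held 1 GGAAA, 172 bases before its start, and a TATAAA 30 bases before it. Ccl3 held 2 matches, both read as TTTCC, 59 and 34 bases before its start, and Xcl1 held 1, read as TTTCC, 100 bases before its start. Nr4a1 held TGCGTCA 4 times, at 235, 215, 71 and 42 bases before its start. Both strands were searched. Of 32851 promoters of the same length in the table, 61.3% held GGAAA, 2.12% held TGCGTCA and 13.6% held TATAAA. Only 1 of these promoters, the Nr4a1 window itself, held 4 or more copies of TGCGTCA. The AP-1 element TGANTCA (in 7.81% of promoters), the cyclic AMP element TGACGTCA (1.79%) and the NF-κB consensus (0.411%, which contains TTTCC) did not occur in these 4 windows. A match is a description of letters, not a site or a cause, and no match says only that these letters are not in the window.

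Transcripts of the 3 genes were very unevenly spread among the members. A female member held a median of 5 Ifng UMIs (range 2 to 145) and a male member a median of 6 (2 to 168), and the 10% of members with the most held 51.8% (female) and 47.7% (male) of the members' Ifng UMIs. Ccl4 had medians of 14 (0 to 1110) in female and 20 (0 to 720) in male members. Ccl3 had medians of 3 (0 to 112) and 5 (0 to 234), with 45 female and 39 male members at 0, which passed on Ccl4 alone. The members, a small share of the base, held 55.2% (female) and 62.0% (male) of its Ifng UMIs, 73.7% and 79.5% of its Ccl3 UMIs, and 62.8% and 71.4% of its Ccl4 UMIs. Summed over barcodes and divided by the total UMIs of the set (CPM, with a total of 1e+06), Ccl4 stood at 3135 CPM in members against 221 CPM in the comparison in the female library, and at 5664 against 433 CPM in the male one. These values chose the cells and are given as a description. In barcodes with keratin and no Cd3 transcripts, which should lack these genes, 0 of 26 female and 0 of 23 male barcodes had an Ifng, Ccl3 or Ccl4 UMI (taking 3 barcodes as the limit of a count of 0, this allows up to 11.5% and 13.0%), at medians of 53109.5 and 43236 UMIs.

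**Figure D1:**
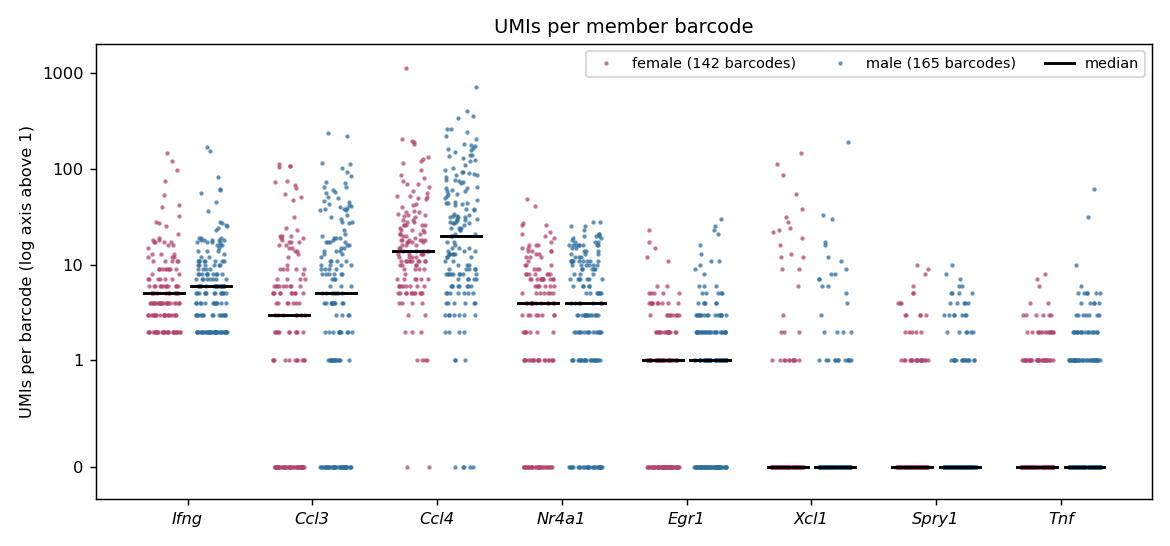
UMIs per member barcode (log axis above 1) for the rule genes Ifng, Ccl3 and Ccl4 and for Nr4a1, Egr1, Xcl1, Spry1 and Tnf; each point is a barcode, with 142 female and 165 male members, and bars are medians. Ccl4 reaches 1110 UMIs and Xcl1 189 UMIs in a barcode, while the medians of Xcl1, Spry1 and Tnf are 0.

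The label of CD8 T cells was checked against markers. The rule asked for 2 Cd8a plus Cd8b1 UMIs, and members held a median of 20 (female) and 13 (male). Cd3e, part of the receptor complex and not used by the rule, was close to the comparison (−0.08 female, −0.02 male). Of other cells' markers, Lyz2, Cd4 and Foxp3 were at 0 by the rule. Summed marker lists gave 218 (female) and 171 CPM (male) for myeloid markers, mostly Cst3, against 170 and 165 CPM in the comparison, with Csf1r and Adgre1 at 0, and 164 and 203 CPM for natural killer markers, mostly Klre1, against 125.1 and 113 CPM. B cell markers summed to 15.1 and 28.6 CPM in members against 33.3 and 49.2 CPM in the comparison, class II and dendritic markers to 32.2 and 39.2 against 31.8 and 57.6 CPM, and erythroid and mast markers to 0 in the members of both libraries. Neutrophil, epithelial, stromal and endothelial, and CD4 or γδ T cell markers each summed to at most 10.7 CPM in members. No barcode was used in both libraries, although 16 barcode sequences occur in both.

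Members made up 9.0% of base barcodes in the female library (142 of 1577, 95% interval 7.64 to 10.5%) and 11.4% in the male one (165 of 1446, 9.82 to 13.2%). They were more frequent among barcodes with a Havcr2 UMI. There they made up 13.4% (10.997 to 15.998%) of female and 22.0% (18.6 to 25.6%) of male barcodes, against 5.07% (3.68 to 6.79%) and 4.56% (3.28 to 6.16%) of those without one. Base barcodes with a Havcr2 UMI were deeper than those without, with medians of 10571 against 6667 UMIs (female) and 9905 against 6472 UMIs (male). The shares by Havcr2 state were not compared at equal depth. Members were also deeper than the comparison, with medians of 10609.5 against 7906.5 UMIs (female) and 8160 against 6987 UMIs (male). A rule that counts UMIs depends on depth: with every barcode thinned to 3000 UMIs, 3.99% (3.01 to 5.17%) of the female and 6.85% (5.48 to 8.45%) of the male base qualified.

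The members were set against the comparison over all genes. Of 7374 genes measured (at least 10 CPM in members or comparison in both libraries, and 20 UMIs in all), 50 were at least 2-fold higher in members in both libraries (0.678%) and 10 were at least 2-fold lower (0.136%). The median over all measured genes was 0.00 (female) and −0.03 (male) log2 units. Because the rule chose members in this same contrast, these shares are printed as background and nothing is read from them. The 50 include Ifng, Ccl3 and Ccl4, and the 10 include Gzmd, Gzme and Gzmf, which the rule capped, and the receptor segments Trav3-3, Trbv31 and Trbv14. Among the other higher genes were 4 Nr4a or Egr factors, 7 AP-1 and other immediate early genes, 3 MAP kinase feedback genes, 3 cytokines, 2 further chemokines and 3 TNF family ligands, described in turn below. The remaining lower genes were Ddah1, Tcf7, Myb and Ccr7.

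**Figure D2:**
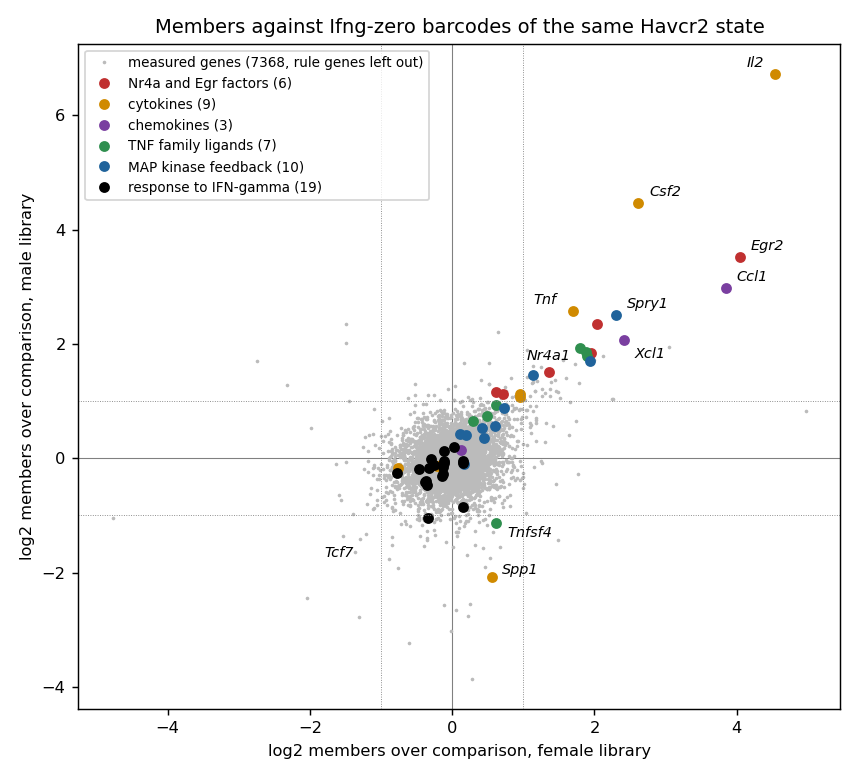
Log2 ratio of members over Ifng-zero barcodes of the same Havcr2 state, female library across and male library up, for the measured genes (grey; rule genes left out) with 6 gene lists in colour; dotted lines mark 2-fold. Il2, Csf2, Egr2, Ccl1, Spry1, Xcl1 and Tnf lie at the upper right, the 19 genes of the response to IFN-γ around 0, and Spp1 and Tnfsf4 have opposite signs in the libraries.

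All 6 genes of the Nr4a and Egr families were higher in members in both libraries, and 4 were past 2-fold (medians 1.66 log2 units female and 1.67 male). Nr4a1, an orphan nuclear receptor whose transcription follows the strength of receptor signals, stood at 541 CPM in members against 140 CPM in the comparison in the female library (1.95, 95% interval 1.82 to 2.09), and at 723 against 202 CPM in the male one (1.84, 1.70 to 1.98). Egr1, a zinc finger factor induced through MAP kinase, stood at 160 against 62.4 CPM (1.36, 1.13 to 1.59) and at 256 against 90.04 CPM (1.51, 1.29 to 1.73). Egr2, a related factor linked to restrained T cell responses, was nearly absent from the comparison, at 24.6 against 1.49 CPM (4.04, 3.08 to 5.12) and 37.2 against 3.24 CPM (3.52, 2.62 to 4.53). Egr3, its close relative, differed by 2.04 and 2.36. Nr4a2 (0.72 and 1.12) and Nr4a3 (0.61 and 1.16), which are tied to the exhausted state together with Nr4a1, were higher but short of 2-fold in the female library.

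The excess also showed in the share of barcodes with a UMI. Such a share rises with the UMIs per cell, so it cannot tell more cells from more UMIs per cell. At 3000 UMIs per barcode, which left out 4 female and 7 male members and 67 and 91 comparison barcodes, Nr4a1 was seen in 57.6% of female and 62.7% of male members, against 33.3% and 34.2% of comparison barcodes (unthinned 78.9% and 82.4%, against 53.3% and 50.5%). Egr1 was seen in 32.6% and 40.3% of thinned members, against 18.4% and 21.2% of the thinned comparison, and Egr2 in 6.71% and 11.4% against 0.834% and 1.38%. Most members thus had no Egr1 UMI at this depth, while some comparison barcodes had one. In the keratin-positive barcodes named above, at their greater depth, 26.9% (female) and 34.8% (male) had an Nr4a1 UMI 7.69% and 4.35% an Egr1 UMI, and 30.8% and 47.8% an Egr2 UMI, which is above the unthinned 14.1% and 17.6% of members for Egr2.

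**Figure D3:**
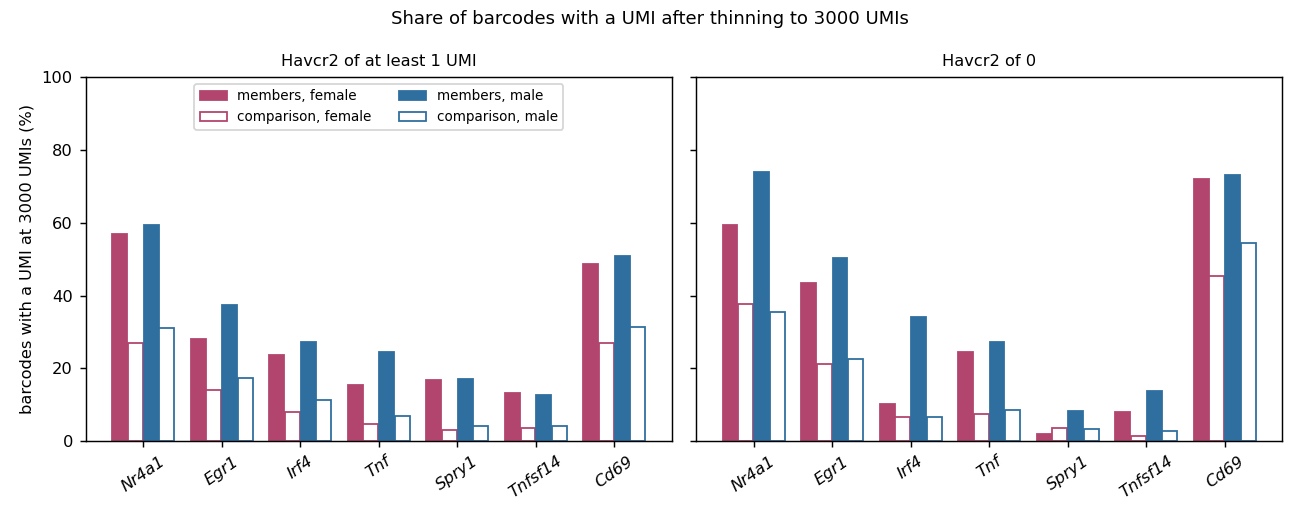
Share of barcodes with a UMI after thinning to 3000 UMIs, for members (filled) and comparison (open) of each library, with a Havcr2 UMI (left) and without (right). The members' bar is the higher of each pair for these 7 genes in both panels, except for Spry1 in female barcodes without Havcr2 (1.94% of members against 3.47%).

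Among 18 measured AP-1 and other immediate early genes, 7 were past 2-fold higher and 16 were higher in both libraries (medians 0.88 and 0.77). The largest were Atf3, a stress and signal induced bZIP factor (3.05 female, 1.94 male), and Myc, which drives growth of stimulated T cells (1.9996 and 1.72). The AP-1 subunits Jun (1.79 and 1.32), Fos (1.73 and 1.65) and Fosb (1.19 and 1.35) followed. Crem, an inducible cAMP response gene, did not share the direction (−0.42 and 0.02). Of 17 further receptor-induced factors only Irf4, whose level follows receptor signal strength, was past 2-fold, at 82.0 against 27.8 CPM (1.56, 1.22 to 1.90) in the female and 116 against 35.3 CPM (1.72, 1.37 to 2.08) in the male library. The list's medians were 0.23 and 0.33. Tbx21, which encodes the Ifng activator T-bet, differed by 0.61 and 0.54, and the NF-κB subunit Rel by 0.61 and 0.85. Cd69, an early surface marker of stimulation that keeps T cells in tissue, stood at 372 against 154 CPM (1.27) and 422 against 183 CPM (1.20). Against Ifng-zero barcodes not matched for Havcr2, Jun (1.13 and 0.60), Fos (1.01 and 0.70), Myc (1.79 and 0.87), Fosb (0.81 and 1.28) and Cd69 (0.93 and 0.59) were short of 2-fold in a library.

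The stress genes that tissue digestion is known to induce moved with these genes. Of 18 measured, 4 were past 2-fold and 16 were higher in both libraries (medians 0.45 and 0.31), among them Hspa1a (2.12 and 1.80) and Hspa1b (1.86 and 1.77), near-identical heat shock genes whose counts cannot be separated with certainty. An Hspa1a or Hspa1b UMI was present in 20.4% of female and 35.2% of male members, against 9.49% and 14.2% of comparison barcodes. These shares were not taken at equal depth, and members were deeper than the comparison, as given above. Without all such barcodes (113 female and 107 male members left), 39 genes were past 2-fold higher, 36 of them among the 50, and 13 were lower, 7 of them among the 10. Nr4a1 was then 2.07 and 1.51, Egr1 1.51 and 1.01, Egr2 4.32 and 2.78, Irf4 1.502 and 1.31 and Fos 1.73 and 1.56. Their excess was thus also present in members with no heat shock UMI. A barcode without such a UMI can still come from a stressed cell, and the part of digestion in these ratios was not tested. Klf6, Dusp1, Zfp36l1 and Ier3 fell short of 2-fold in a library without these barcodes.

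Genes that damp receptor signals were divided. Of 10 measured MAP kinase feedback genes 3 were past 2-fold and 9 were higher in both libraries (medians 0.53 and 0.55). Spry1, an inhibitor of Ras and MAP kinase signalling, had the largest ratio of them, at 63.1 against 12.8 CPM (2.31, 1.87 to 2.74) in the female and 83.0 against 14.7 CPM (2.50, 2.01 to 3.02) in the male library. The ERK phosphatase Dusp6 differed by 1.94 and 1.71, Dusp1 by 1.13 and 1.46, Dusp4 by 0.73 and 0.88 and Dusp2 by 0.60 and 0.57. Of 14 NF-κB feedback genes 2 were past 2-fold (medians 0.31 and 0.43). These were Nfkbid, a nuclear IκB protein, at 195 against 54.0 CPM (1.85) and 246 against 66.2 CPM (1.89), and its relative Nfkbiz (1.27 and 1.08, or 1.20 and 0.87 without matching for Havcr2), whereas the classical inhibitor Nfkbia (0.97 and 0.61) and the deubiquitinase gene Tnfaip3 (0.41 and 0.62) were not. Among 8 mRNA decay factors, which shorten the life of cytokine transcripts, Zfp36l1 was past 2-fold (1.16 and 1.18) and Zfp36 was just below it in the male library (1.18 and 0.91). None of 12 cytokine feedback genes was past 2-fold. Their medians were 0.33 and 0.27, with the G protein regulators Rgs16 at 0.89 and 0.87 and Rgs2 at 1.09 and 0.91, and the STAT inhibitor Socs3 at −0.40 and −0.51.

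Of 19 cytokine genes 9 were measured; Tnf, Il2 and Csf2 were past 2-fold, 5 were higher and 3 lower in both libraries (medians 0.95 and 1.07). Tnf, seen in 54 of 142 female and 74 of 165 male members, stood at 65.6 against 20.3 CPM (1.69, 1.31 to 2.08) in the female library and 165 against 27.7 CPM (2.57, 2.23 to 2.93) in the male one. At 3000 UMIs it was seen in 18.1% of female and 25.1% of male members, against 6.34% and 8.19% of the comparison. In the male library 61 Tnf UMIs came from 1 barcode, and without barcodes with heat shock UMIs the male ratio was 1.57. Il2, the T cell growth factor, had 16 UMIs in 3 female members and 81 UMIs in 5 male members, and Csf2, which encodes GM-CSF, 17 UMIs in 6 and 84 UMIs in 10. For Csf2, 52.9% of the female and 65.5% of the male UMIs were in 1 barcode, and the ratios of 2.61 and 4.47 were 1.55 and 2.93 without it. Most members thus had no UMI of either gene. Lta (0.95 and 1.13) and Csf1 (0.95 and 1.07) were near 2-fold, while Ltb (−0.16 and −0.12), Tgfb1 (−0.21 and −0.13) and Il16 (−0.76 and −0.16) were slightly lower.

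Of 10 chemokine genes besides the rule genes 3 were measured. Xcl1, which draws cross-presenting dendritic cells that bear XCR1, stood at 428 against 80.5 CPM (2.41, 2.24 to 2.58) in the female library and 260 against 61.5 CPM (2.08, 1.84 to 2.32) in the male one. Its UMIs came from 33 members of each library, with up to 145 UMIs in a female and 189 in a male member. The male Xcl1 ratio was 1.13 without the top barcode and 0.39 without barcodes with heat shock UMIs, whereas the female ratio was 2.08 and 2.28. Ccl1, a ligand of CCR8, was seen in 17 female and 14 male members (3.85 and 2.97), with 1 barcode holding over 50% of its UMIs in each library; without that barcode it was 2.58 and 1.92. Ccl5, a chemokine that CD8 T cells hold at high levels after differentiation, did not share the excess (0.12 and 0.15).

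Of 7 measured TNF family ligands 3 were past 2-fold (medians 0.62 and 0.93). These were Tnfsf9, the ligand of 4-1BB (1.80 and 1.93), Tnfsf14, which encodes LIGHT (1.89 and 1.79), and Cd40lg, the helper ligand of CD40 (1.89 and 1.87). Cd40lg was seen in 9 female and 10 male members, and its male ratio was 0.26 without barcodes with heat shock UMIs. The death ligands Fasl (0.29 and 0.65) and Tnfsf10 (0.49 and 0.73) were below 2-fold. Tnfsf14 was seen in 11.6% of female and 12.9% of male members at 3000 UMIs, against 2.38% and 3.17% of the comparison.

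**Figure D4:**
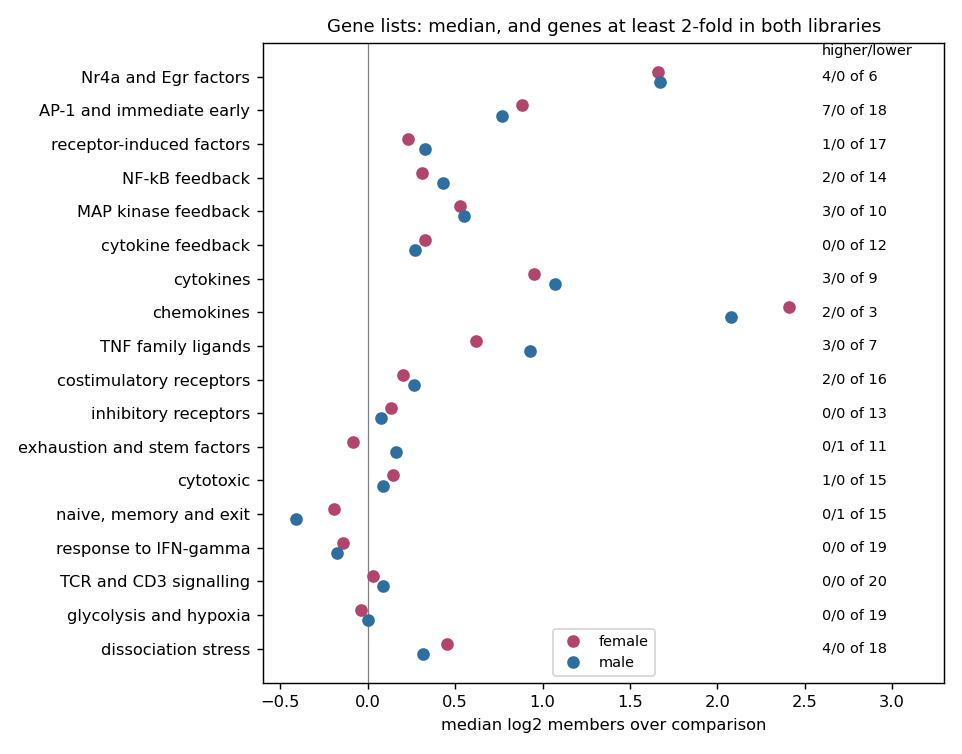
Median log2 ratio of members over comparison for 18 gene lists in the female and male libraries, with counts at the right of the genes past 2-fold up and down in both libraries, out of those measured. The Nr4a and Egr list (1.66 and 1.67) and the chemokines (2.41 and 2.08, 3 genes) lie farthest to the right; TCR and CD3 signalling, glycolysis and the response to IFN-γ lie near 0.

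Lists of receptors, killing, signalling and metabolism had medians near that of all genes once the Havcr2 state was matched. Few genes pass 2-fold in any list of this size, since 0.678% of all measured genes were higher and 0.136% lower, so a count of 0 is close to that background. None of 13 inhibitory receptors was past 2-fold (medians 0.13 and 0.08): Pdcd1, which encodes PD-1, stood at −0.29 and 0.08, Lag3 at 0.05 and −0.12 and Tigit at −0.20 and −0.11. Of 15 cytotoxic genes 1 was past 2-fold, Klrg1, a marker of late effector cells (1.24 and 1.59). The killing machinery was near the comparison, with perforin (Prf1) at 0.25 and 0.22, granzyme B (Gzmb) at 0.14 and 0.45, and Nkg7 at 0.17 and 0.16; Gzma had opposite signs (0.97 and −0.14). None of the 20 genes of the receptor complex and its proximal signalling was past 2-fold (medians 0.03 and 0.08), nor were any of 19 glycolysis and hypoxia genes (−0.04 and 0.00) or of 10 genes of the IL-12, IL-18 and STAT4 route to Ifng (−0.02 and −0.04).

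Of 15 measured genes of naive cells, memory and tissue exit, 1 was past 2-fold lower, 9 were lower and 2 higher in both libraries (medians −0.19 and −0.41). Tcf7, which encodes TCF-1, the factor of naive and stem-like CD8 cells, stood at 23.3 CPM in members against 67.9 CPM in the comparison (−1.54, −2.06 to −1.06) in the female library and at 35.2 against 89.9 CPM (−1.35, −1.79 to −0.94) in the male one. The lymph node homing receptor Ccr7 stood at 121 against 297 CPM (−1.29) and 111 against 293 CPM (−1.40). At 3000 UMIs Tcf7 was seen in 8.27% of female and 9.85% of male members, against 25.8% and 40.4% of the comparison, and Ccr7 in 12.3% and 9.75% against 31.0% and 41.7%. Of 11 exhaustion and stem cell factors Tcf7 was the gene past 2-fold (list medians −0.08 and 0.16), and Tox, a driver of exhaustion, stood at −0.08 and 0.76. Klf2, which drives exit from tissue and is shut off by receptor signals, was slightly higher and not lower (0.62 and 0.66).

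Response genes of IFN-γ were not higher in the cells that transcribed Ifng. Of 19 measured response genes none was past 2-fold in either direction, 14 were lower in members in both libraries and 1 was higher in both (medians −0.14 and −0.17; over all measured genes 2041 were higher and 2243 lower in both). The list is not made of response genes alone, since it also held genes of the IFN-γ receptor, such as Ifngr2, which was not measured. Ifngr1, which encodes the ligand-binding chain of this receptor, stood at 585 against 753 CPM (−0.36, −0.47 to −0.26) in the female library. In the male library it stood at 554 against 728 CPM (−0.39, −0.51 to −0.28). Gbp7, a guanylate-binding protein gene, stood at −0.38 and −0.42.

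Sorting the base by both criteria showed which genes went with which. Barcodes with at least 2 Ifng UMIs but fewer than 5 Ccl3 plus Ccl4 UMIs were as frequent as members (175 female and 164 male), and their Nr4a1 level of 223 and 255 CPM lay nearer to that of barcodes low for both (153 and 192 CPM) than to that of members (541 and 723 CPM). Barcodes with no Ifng UMI but at least 5 Ccl3 plus Ccl4 UMIs (87 and 71) had 348 and 373 CPM of Nr4a1. Nfkbid followed the chemokines in the same way, at 195 and 246 CPM in members, 158 and 229 CPM in the chemokine-only barcodes and 68.6 and 77.6 CPM in the Ifng-only barcodes. Spry1 did not: it stood at 63.1 and 83.0 CPM in members, but at 14.96 and 22.3 CPM in the chemokine-only and 17.0 and 20.8 CPM in the Ifng-only barcodes, against 14.5 and 13.5 CPM in barcodes low for both. The classes also differed in Havcr2: a UMI was present in 70.4% and 75.8% of members, 59.8% and 56.3% of chemokine-only, 60.6% and 53.0% of Ifng-only and 36.3% and 24.6% of low barcodes. Among barcodes with Havcr2 alone, Nr4a1 still stood at 490 and 655 CPM in members against 110 and 172 CPM in low barcodes, and Spry1 at 77.4 and 89.8 against 11.2 and 13.2 CPM.

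**Figure D5:**
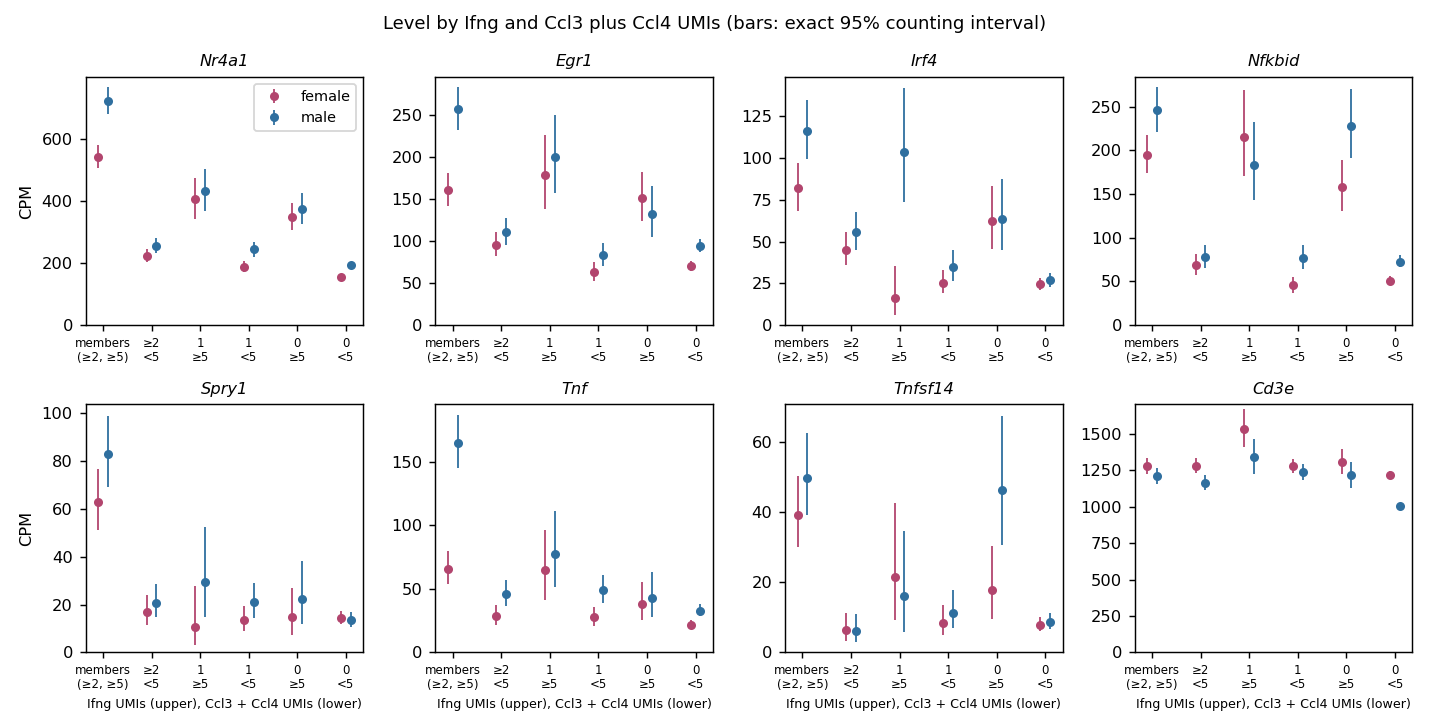
Level (CPM, linear axis from 0) of 8 genes in base barcodes sorted by Ifng UMIs and Ccl3 plus Ccl4 UMIs, female and male libraries, with exact 95% counting intervals. In the classes with a chemokine sum of at least 5, Nr4a1, Egr1 and Nfkbid stand above the classes with fewer, Spry1 stands highest in members (63.1 and 83.0 CPM), and Cd3e differs little between classes.

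Levels just inside and just outside the rule followed no common order. Members with exactly 2 Ifng UMIs (28 female and 35 male) had 454 and 781 CPM of Nr4a1, and barcodes with exactly 1 Ifng UMI that met the other criteria (42 and 46) had 454 and 431 CPM. Members with 5 or 6 Ccl3 plus Ccl4 UMIs (19 and 20) had 344 and 187 CPM, and barcodes with 3 or 4 (26 and 15) had 269 and 550 CPM. The ceiling on Gzmd to Gzmg kept out 11 female and 13 male barcodes. Levels were also set out by the members' own Ifng count. From 2 to 4, through 5 to 9, to 10 or more Ifng UMIs, Xcl1 stood at 126, 230 and 1094 CPM in female and 70.0, 208 and 540 CPM in male members, and Spry1 at 20.3, 83.2 and 115 CPM and at 29.5, 59.5 and 172 CPM. The male Xcl1 order rests on 1 barcode with 189 UMIs: without the top barcode of each step it was 50.2, 152 and 132 CPM, against 76.3, 98.5 and 798 CPM in female members, while Spry1 kept its order. Nr4a1 showed no such order in the female library (412, 752 and 567 CPM; male 682, 653 and 847 CPM). The share of members with a Havcr2 UMI was 64.3%, 71.8% and 81.8% in female and 62.9%, 75.5% and 92.0% in male members over the same steps.

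The members were of both Havcr2 states, and several signal genes were higher in each. A Havcr2 UMI was present in 70.4% of female and 75.8% of male members, and absent from 42 and 40 of them. Against the comparison of the same state, Nr4a1 was higher by 2.04 (female) and 1.71 (male) with Havcr2 and by 1.76 and 2.34 without it, Tnf by 1.56 and 2.48 with it and 1.97 and 2.86 without it, and Tnfsf14 by 1.80 and 1.67 with it and 2.39 and 2.47 without it. Spry1 differed by 2.75 and 2.601 with Havcr2, and by −0.56 and 1.79 without it. Without Havcr2, where members were few, the ratio was also small for Nr4a3 (0.13) and Irf4 (0.65) in the female and for Xcl1 (0.38) and Atf3 (0.18) in the male library, and Egr3 had no UMI in female members.

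Within the members, those with and without Havcr2 differed in differentiation genes (ratios are with over without). Prf1 stood at 498 CPM in members with Havcr2 against 98.5 CPM without it in the female library (2.34) and at 510 against 150 CPM in the male one (1.77), the transcription factor gene Irf8 differed by 1.47 and 1.55, Pdcd1 by 0.89 and 0.84 and Gzmb by 0.94 and 1.15. Members without Havcr2 were higher for Tcf7 (−1.92 and −1.74), the exit receptor S1pr1 (−2.12 and −1.61), the Notch target Nrarp (−2.78 and −1.98), Rasgrp2 (−1.84 and −2.24) and Cxcr3 (−1.60 and −1.28). The signal genes did not share a direction. Lower with Havcr2 in both libraries were Nr4a1, Egr1, Tnf and Cd69: Nr4a1 stood at 490 CPM with Havcr2 against 727 CPM without it (−0.57) and at 655 against 1067 CPM (−0.70), Egr1 at −1.004 and −1.001, Tnf at −0.99 and −0.94 and Cd69 at −1.16 and −1.22. Higher with Havcr2 in both libraries were Nr4a2 (0.23 and 0.60), Nr4a3 (0.16 and 0.37) and Spry1 (2.74 and 0.89), and Irf4 (1.09 and −1.14) and Atf3 (−0.98 and 2.27) had opposite signs. The comparison had the same direction for Egr1 (−0.90 and −0.23), Prf1 (2.38 and 3.45), Tcf7 (−2.42 and −2.78) and S1pr1 (−1.63 and −1.16). It also did for Irf8 (1.31 and 2.13), Nrarp (−0.75 and −1.41), Rasgrp2 (−0.77 and −0.68) and Cxcr3 (−1.13 and −0.57). Nr4a1 in the comparison stood at 119 CPM with Havcr2 against 214 CPM without it (female) and 200 against 211 CPM (male). Tnf stood at 18.3 against 27.3 CPM and 25.7 against 37.9 CPM. The direction of these differences is thus not particular to the members, while their size was not always shared. In both libraries Egr1, S1pr1, Nrarp, Rasgrp2 and Cxcr3 differed more in members, and Prf1 and Tcf7 more in the comparison. In the male library Nr4a1 was nearly level in the comparison. For the other genes the comparison is not given here.

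The members did not share a receptor. Each barcode was given its top segment (2 UMIs or more), and 134 female and 151 male members had a Trbv segment, spread over 17 segments in each library, and the most frequent were Trbv12-2 in the female (24, 17.9%) and Trbv1 and Trbv12-2 in the male library (27 each, 17.9%). With a Trav segment as well, 104 female members held 65 pairs, 45 of them seen once, and 103 male members held 58 pairs, 38 of them seen once. The most frequent pair was Trbv20 with Trav2 in female members (9, 8.65%) and Trbv1 with Trav6d-4 in male members (11, 10.7%), against 7.45% (44 of 591) and 4.31% (19 of 441) of the comparison in the same library. Segments with near-identical copies can be confused in counting, and a shared pair of segments is not a shared clone.

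Female and male members were also set against each other. Of 7707 genes (at least 10 CPM in either and 20 UMIs in all), 48 with at least 50 UMIs were at least 1.5-fold higher in female members and had an interval bound of at least 0.32 log2 units (0.623%), and 41 were lower by the same measure (0.532%). Sex-linked genes, receptor segments and predicted genes were not taken out of these counts. The counts depend on the weighting, with 65 higher and 95 lower at equal weight per barcode. Crabp2, a retinoic acid carrier, had 52 UMIs in female and 2 in male members (4.63). Slc15a2, a peptide transporter, was higher in female members (69.4 against 23.9 CPM, 1.54) and in the female comparison (1.37). The serpin gene Serpinb9b was higher in female members (1.497) and level in the comparison (0.05). Tyrobp (3.48, 63.8% of its female UMIs in 1 barcode), Fcer1g (2.15) and Spp1 (2.43) were also higher in female members. All 3 are expressed in myeloid cells. The myeloid marker sums were 218 CPM in female and 171 CPM in male members, but they include Tyrobp itself (47 and 4 UMIs). Cst3, which held most of the UMIs in these sums, had 227 UMIs in female and 231 in male members. Of natural killer markers, Ncr1 had 17 UMIs in female and 0 in male members, Klrb1c 22 and 4, and Klra4 6 and 0. The summed natural killer markers, mostly Klre1, went the other way (164 CPM in female and 203 CPM in male members). The part of either cell type in these ratios was not tested.

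Among genes lower in female members were cytokine genes. Il2 (−2.41) and Csf2 (−2.38) rest on few barcodes, as given above. Tnf stood at 65.6 CPM in female against 165 CPM in male members (−1.33, −1.67 to −0.99), a difference smaller in the comparison (−0.54). Dhx40, a helicase gene, stood at 47.9 against 149 CPM (−1.63, −2.03 to −1.25) and was level in the comparison (−0.03). Klf2 stood at 298 against 696 CPM (−1.22) and was also lower in the female comparison (−1.42). With 1 library per sex, sex and library cannot be told apart, and a heat shock UMI was more frequent in male members, as given above.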

How the data were processed

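Single-cell RNA was counted in 1 female and 1 male droplet library. The deposited matrices hold whole-number UMI counts for 32285 genes, and per the file headers Cell Ranger 7.0.1 made them. The submitters' processing notes also list GRCm38 and Seurat 5 without a role. The annotation release is not given in the sources used here.

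Everything else was computed from these counts with Python 3.11.15, numpy 2.4.6, scipy 1.17.1, pandas 2.3.3 and matplotlib 3.10.9; edgeR 4.0.16 gave TMM factors for an alternative. No doublet caller was run: the rule's genes required at 0 and its limit of 25000 UMIs took that place, and marker sums of other cell types are given. UMIs were summed per library, set and Havcr2 state and divided by the total. Comparison CPM were weighted by the members' share of UMIs in each Havcr2 state. Ratios carry exact 95% intervals from the binomial form of a Poisson ratio, shares a Clopper-Pearson interval, and a sum of 0 was set to 3 counts. Shares at 3000 UMIs are exact expectations over thinning. No test was run, because members were chosen by their transcripts and each sex had 1 library.

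The members and the 38 gene lists were chosen with earlier results of these data known. Named genes were all measured Nr4a, Egr, cytokine, chemokine and TNF ligand genes, up to 4 of each other list by the smaller of the libraries' ratios, the 15 highest and 15 lowest genes over all that had 1 sign in both libraries and states, and the 8 highest and 8 lowest between sexes. Some genes were left out of the picks over all genes and between sexes. These were genes used by the rule, predicted genes, receptor and immunoglobulin segments, sex-linked genes, and mitochondrial and ribosomal protein genes. Other genes named in the text were chosen after their values were seen. The computation was tested on simulated data in which 200 genes had been changed. Alternatives were other thresholds, scalings, floors and weights, thinning, and, added after the data were seen, leaving out barcodes with Hspa1a or Hspa1b UMIs or each gene's top barcode. Results for a few genes are not reported here.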

Additional observations from a re-analysis of the deposited data

Results flagged for a closer look

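Spp1, which encodes osteopontin, differed in sign between the libraries: members were higher than the comparison by 0.55 log2 units in the female library and lower by −2.08 in the male one. Of its UMIs, 119 were in female and 21 in male members, with 41.2% and 57.1% of them in 1 barcode. Tnfsf4, which encodes the ligand of OX40, likewise stood at 0.62 (female) and −1.13 (male), on 17 and 8 UMIs. The median of the exhaustion and stem cell factors was −0.083 (female) and 0.16 (male), and that of the glycolysis and hypoxia genes was −0.041 (female) and 0.00019 (male), both close to 0. With 1 library per sex the difference between the libraries was not tested for any of these.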

How the results depend on the processing

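The share of members among base barcodes followed the thresholds and depth. It was 11.7% (female) and 14.6% (male) with at least 1 Ifng UMI, 7.23% and 8.99% with at least 3, 6.79% and 8.71% with at least 10 Ccl3 plus Ccl4 UMIs, and 3.99% and 6.85% after thinning to 3000 UMIs. Of 7374 genes, 50 were higher and 10 lower; with no floor on low genes 2119 were higher and 72 lower, since a sum of 0 counts as 3 UMIs there, and with a floor of 50 CPM 5 were lower. Without matching for Havcr2 47 were lower, with equal weight per barcode 22 were lower, and after thinning 78 were higher and 39 lower. Between female and male members, 48 were higher and 41 lower; thinning left 9 higher, no floor gave 103 and 104, a floor of 50 CPM left 28 higher, and equal weights gave 95 lower. After thinning, Irak4 (0.17, male), Pacs2 (0.11, male) and Tnfsf11 (−0.24, female) changed sign; the cause was not tested. Under all of these settings and without each gene's top barcode, 16 of the 50 higher and 5 of the 10 lower genes stayed past 2-fold, among the higher ones, besides the 3 rule genes, Nr4a1, Egr1, Irf4, Tnf, Tnfsf9, Spry1, Nfkbid, Atf3, Ccl1, Gem, Plk3, Morrbid and Gadd45b, and among the lower ones, besides the capped granzymes, Tcf7 and Ccr7; a floor of 50 CPM alone removed 16 and 5 by leaving them unmeasured. The Nr4a and Egr medians stayed between 1.04 and 1.83 (female) and 1.27 and 2.13 (male) over 14 settings, and the response to IFN-γ between −0.26 and −0.13 and between −0.27 and −0.12. Of the other values named per gene, 1175 moved by less than their interval and 136 by more. A change of sign was counted only for main ratios of at least 1.5-fold. Smaller ratios also crossed 0 in some settings. Ccl5 reached −0.050 (female) and −0.037 (male), and in the male library Tgfb1 reached 0.12 and Il16 0.011. No paired analysis was possible because each sex had 1 library and no test was run; for the same reason no replicate could be left out.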

Other observations

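Several genes outside the lists were also at least 2-fold higher in members in both libraries; they were picked out after their values were seen. Gem, a small GTP-binding protein induced in stimulated T cells, stood at 227 against 101 CPM in the comparison (1.17) in the female and 228 against 101 CPM (1.18) in the male library. Rgcc, a regulator of the cell cycle, stood at 1.38 and 1.21 (1.53 and 0.86 without barcodes with Hspa1a or Hspa1b UMIs), and the stress-induced kinase gene Plk3 at 1.601 and 1.40. Areg, which encodes amphiregulin, stood at 1.14 and 1.33, but at 0.69 and 0.39 without the barcode with the most UMIs. Mir155hg, the host transcript of miR-155, stood at 1.52 and 1.05 (1.58 and 0.85 without those barcodes), and Morrbid, a long noncoding RNA that restrains the death gene Bcl2l11, at 1.09 and 1.10.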
